A study of Mus musculus with 4 samples.

Results

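The genes described here are 42 genes of DNA repair and of the replication fork, chosen by symbol from a deposited table of 19171 mouse genes, in which all 42 were found. Earlier results of these data were known when they were chosen. They were grouped by their known roles into 14 genes of homologous recombination, 10 of the Fanconi anaemia pathway, 5 of fork checkpoint signalling, 8 of the replication fork itself, 3 of deoxynucleotide supply, and 2 of mismatch and base excision repair. RNA came from primary calvarial cells, which grow out of skull bone after collagenase digestion, of C57BL/6 mice at postnatal day 10. All mice carried the genotype mir17fl/fl:106b-/-, so the miR-17 cluster was floxed and the miR-106b cluster was absent in every library, the controls included. Cells received an adenovirus expressing Cre (2 libraries) or YFP (2 libraries), with a dose chosen to infect more than 80% of cells, and RNA was taken 3 days later. Neither the cell type infected nor the share of cells in which the floxed cluster was cut out is given in the labels, and the protein made by the virus differs between the groups together with the deletion.

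The replication fork copies DNA with polymerases held on the template by the ring-shaped clamp PCNA, and it draws on deoxynucleotides made by ribonucleotide reductase and thymidylate synthase. Where a fork stalls, the kinase ATR and its target CHK1 hold back the cell cycle and protect the fork, the Fanconi anaemia proteins act on crosslinked DNA, and BRCA1, BRCA2 and their partners restore broken forks by copying the sister chromatid. Many of these genes are transcribed mainly in dividing cells, in late G1 and S phase, where E2F transcription factors act on their promoters. In bulk RNA a lower value can come from fewer cycling cells or from less of the RNA in each cell, and these cannot be told apart.

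The miRNAs of both clusters are shown first because they are what the genotype and the Cre virus target. The mature sequences below are from RefSeq (GRCm38.p6), with the seed, bases 2 to 8, in capitals. The first 6 belong to the floxed cluster and the last 3 to the cluster missing in both groups. By seed they form 4 families, in which miR-17-5p and miR-20a-5p share the seed of miR-106b-5p and miR-93-5p, miR-92a-3p shares that of miR-25-3p, miR-19a-3p and miR-19b-3p share theirs, and miR-18a-5p stands alone.
miR-17-5p: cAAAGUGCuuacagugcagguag
miR-18a-5p: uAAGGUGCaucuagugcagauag
miR-19a-3p: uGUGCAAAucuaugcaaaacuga
miR-20a-5p: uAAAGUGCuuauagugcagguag
miR-19b-3p: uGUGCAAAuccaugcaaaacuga
miR-92a-3p: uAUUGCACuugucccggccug
miR-106b-5p: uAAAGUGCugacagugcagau
miR-93-5p: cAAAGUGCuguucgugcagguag
miR-25-3p: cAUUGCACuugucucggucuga

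With Cre, 27 of the 42 genes were lower and 0 were higher (limma, Benjamini-Hochberg adjusted p under 0.05 over 12046 tested genes). All 42 passed the filter on low values. Of all tested genes, 16.3% were called lower and 16.6% higher, 32.9% in all. The median log2 change of the 42 genes was -0.26, against -0.01 over all tested genes, on the log2(FPKM + 1) scale, where FPKM is the number of fragments per kilobase of transcript and per mapped-read total. As ratios of mean FPKM the falls were moderate. Among the 27 genes the Cre mean ran from 0.65 (Fanci) to 0.88 (Rrm2, Tyms) of the YFP mean. Both Cre libraries lay below both YFP libraries in 35 of the 42 genes, an arrangement found in 35.4% of all tested genes. They lay above in Msh6 and Xrcc3 (31.5% of all tested genes), and the groups overlapped in Palb2, Atrip, Rfc3, Fen1 and Ung.

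With any 1 library left out, fewer of the 42 genes were called lower, and the share of all tested genes called lower was smaller too. Without Cre replicate 2, 10 genes were called lower (background 6.76% lower, 8.78% higher), and without Cre replicate 1, 18 were (9.14% and 10.7%). In these fits the lone Cre library is taken to vary like the YFP libraries. Blm, Clspn, Fanci, Lig1, Pcna, Pold1, Rfc4 and Rrm1 were called lower in every other setting that tested them (12, or 11 for Blm and Fanci). With no filter on low values, 18 were lower (background 7.51% lower, 10.2% higher). When the fit kept only genes averaging 5 FPKM or more, 19 of the 42 among them, 13 were lower (background 18.7% lower, 17.2% higher). With a pseudocount of 0.1, 27 were lower (background 16.2% lower, 16.5% higher). After median-of-ratios scaling, 26 were lower (background 15% lower, 17.7% higher). After quantile normalization, 27 were lower (background 17.1% lower, 15.7% higher). Without the trend and robust settings of limma, 25 were lower (background 13.7% lower, 14.4% higher). Leaving out YFP replicate 1, 22 were lower (background 13.8% lower, 15.6% higher). Leaving out YFP replicate 2, 21 were lower (background 14.1% lower, 15.5% higher). No gene of the 42 was called higher in any of these. With the pseudocount of 0.1, the log2 changes of the low genes Brca2, Bard1 and Fanca were -0.44, -0.46 and -0.41, more than 1.5 times those reported. At a mean FPKM below 5, 14 of 23 genes were called lower, beside 13.1% of tested genes at that level, and at 5 or more 13 of 19 were, beside 17.7%.

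The 4 libraries were alike in total, with FPKM sums of 458756 to 471021. Mir17hg, the host transcript of the floxed cluster, had 3.29 and 3.91 FPKM in the YFP libraries and 7.35 and 8.49 in the Cre libraries (log2 change 0.96, limma adjusted p = 3.62e-05). None of the 9 miRNA genes of both clusters is listed, and the part of Mir17hg that the reads came from is not known, so it is no check of whether the cluster was cut out. The 10 osteoblast markers summed to 3125 and 2966 FPKM with YFP and to 2832 and 2726 with Cre, nearly all from Col1a1 and Col1a2. Of the 6 tested, 1 was lower and 0 were higher. For this and the marker counts that follow, the shares over all tested genes were 16.3% lower and 16.6% higher. Col1a2 fell from 1329 and 1242 FPKM to 1081 and 1024 (log2 change -0.29, limma adjusted p = 0.00218), while Col1a1 (1684 to 1778), Runx2 (10.28 to 12.11), Sp7 (1.81 to 2.43), Alpl (1.53 to 2.49) and Bglap2 (0.53 to 2.81) did not pass. Ibsp, Phex and Dmp1 were between 0.1 and 0.63, and Bglap was listed at 0 in both YFP libraries and at 1.27 and 0.91 with Cre. All 8 proliferation markers fell, with a median log2 change of -0.50, and their summed level was 241.6 and 243.3 FPKM with YFP against 171.9 and 172.0 with Cre. Of 10 macrophage and leukocyte markers, 6 rose among the 8 tested, with Ptprc between 0.27 and 0.37. Their summed levels were 101.9 and 104.2 FPKM with YFP against 134.7 and 144.8 with Cre. Most of this came from Lyz2 (75.07 and 79.81 against 99.07 and 104.77). Epithelial markers summed to 2.19 and 2.45 FPKM with YFP and to 10.69 and 11.99 with Cre, mostly from Krt18 (0.96 and 0.91 against 8.54 and 9.38), with Epcam at 0.11 to 0.53 and Cdh1 at 0.16 to 0.47. Skeletal muscle markers summed to 36.79 and 43.65 FPKM with YFP and to 65.38 and 69.04 with Cre, nearly all from Acta1. Chondrocyte markers summed to 128.1 and 119.4 FPKM with YFP and to 112.0 and 113.9 with Cre. Most of this came from Col2a1, which did not pass (limma adjusted p = 0.0597). Of the 4 markers, 2 were lower, Acan (ratio 0.598, limma adjusted p = 4.71e-04) and Col9a1 (ratio 0.617, limma adjusted p = 0.00750). Endothelial markers summed to 4.17 and 4.30 against 4.75 and 5.05 FPKM. The part that these shifts have in the changes of the 42 genes was not tested.

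**Figure D1:**
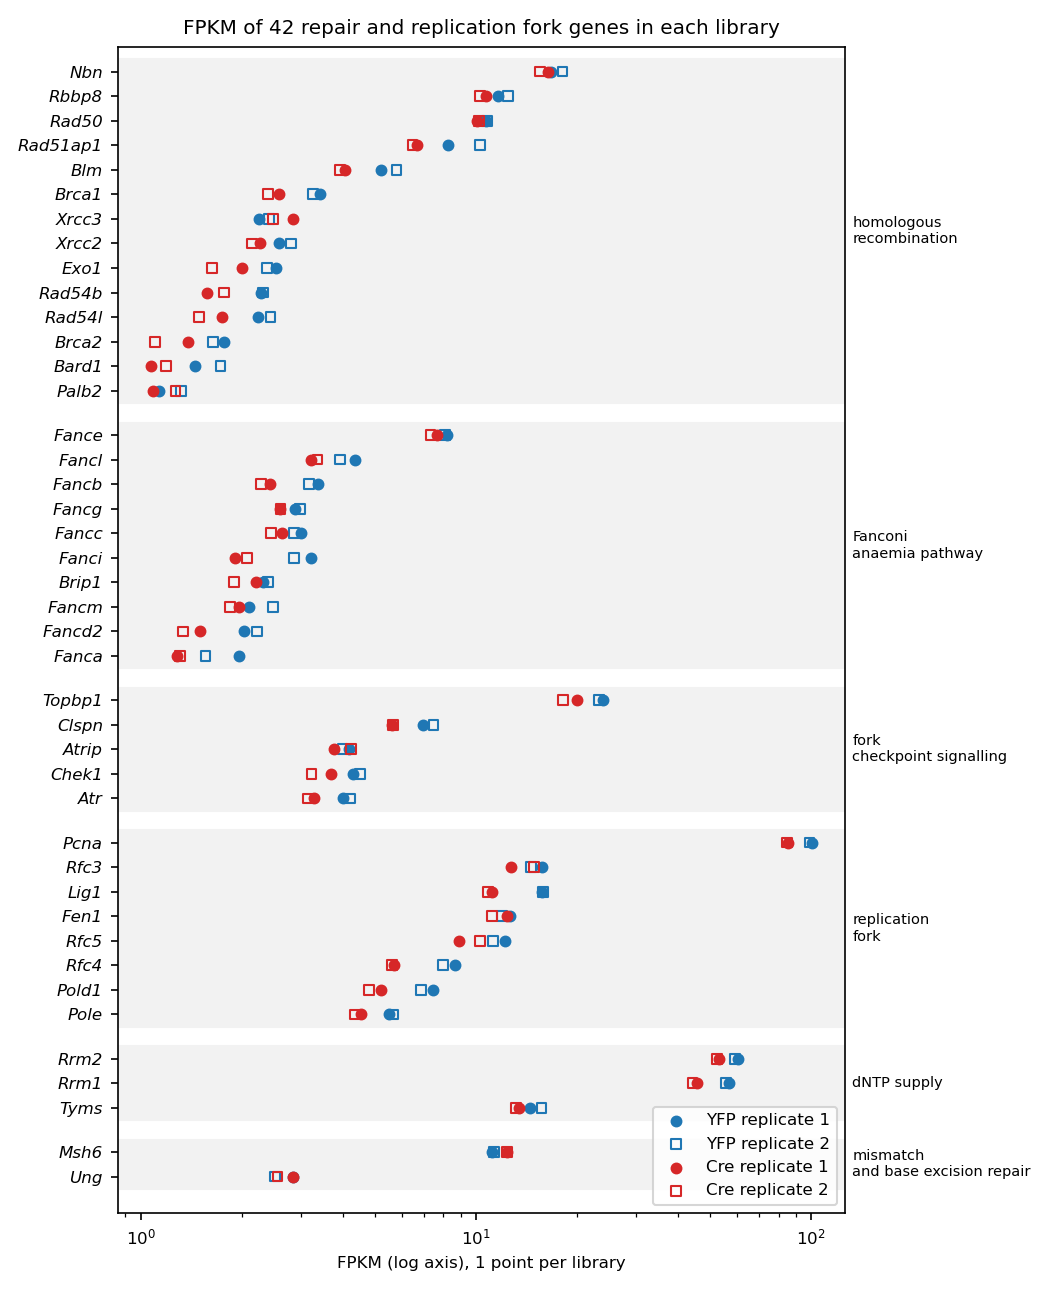
FPKM on a log axis for each of the 42 genes, grouped by role, with 1 point per library (blue YFP, red Cre; filled circles replicate 1, open squares replicate 2). Levels run from about 1 FPKM (Palb2, Bard1) to 100.66 (Pcna), and the red points lie to the left of the blue ones in 35 genes.

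Genes of the replication fork were lower in 6 of 8 cases. For this and the role counts that follow, the share of all tested genes called lower was 16.3%. Lig1, the ligase that seals Okazaki fragments, was at 15.78 and 15.89 FPKM with YFP and at 11.17 and 10.87 with Cre. The replicates of each group lay close together and the groups were well apart, and the log2 change was -0.49 (limma adjusted p = 6.77e-05, SE 0.05). Rfc4, a small subunit of the clamp loader that places PCNA on DNA, was at 8.66 and 7.99 FPKM with YFP and at 5.69 and 5.61 with Cre. Its log2 change was -0.49 as well (limma adjusted p = 2.22e-04, SE 0.06), and here the YFP libraries were the more spread. Pold1, the catalytic subunit of the lagging-strand polymerase delta, was at 7.43 and 6.87 FPKM with YFP and at 5.21 and 4.79 with Cre. The groups did not overlap, and the fall was by 0.44 (SE 0.07, limma adjusted p = 6.48e-04).

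Pcna, the most abundant of the 42 genes, was at 100.66 and 98.90 FPKM with YFP and at 85.47 and 84.68 with Cre. Its Cre mean was 0.85 of its YFP mean, a smaller proportional fall than that of Lig1, and the log2 change was -0.23 (SE 0.04, limma adjusted p = 0.00246). Pole, the catalytic subunit of the leading-strand polymerase epsilon, was at 5.51 and 5.67 FPKM with YFP and at 4.55 and 4.35 with Cre (log2 change -0.27, limma adjusted p = 0.00803), and missed the threshold when Cre replicate 2 was left out (adjusted p = 0.0809). Rfc5, also of the clamp loader, was at 12.19 and 11.23 FPKM with YFP and at 8.90 and 10.30 with Cre, where the Cre libraries were apart from each other by more than the gap between the groups. Its call (log2 change -0.26, limma adjusted p = 0.0182) went when Cre replicate 1 was left out, where the log2 change was -0.17 (adjusted p = 0.171), and also with YFP replicate 1 left out, with no filter, and without the trend and robust settings.

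The remaining fork genes did not pass. Rfc3, the other clamp loader subunit on the list, was at 15.69 and 14.62 FPKM with YFP and at 12.74 and 14.91 with Cre, so that the groups overlapped (log2 change -0.13, limma adjusted p = 0.216). Fen1, the nuclease that trims Okazaki fragment flaps before ligation, was at 12.62 and 11.98 FPKM with YFP and at 12.42 and 11.17 with Cre (log2 change -0.06, SE 0.06, limma adjusted p = 0.525). Fen1 and Lig1 act in succession, and the difference between their changes was not tested. The ratio of Rfc4 to Rfc5 FPKM was 0.710 and 0.711 in the YFP libraries and 0.639 and 0.545 in the Cre libraries.

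All 3 genes of deoxynucleotide supply were lower. Rrm1, the large subunit of ribonucleotide reductase, was at 56.88 and 55.80 FPKM with YFP and at 45.63 and 44.23 with Cre. The groups were far apart relative to their spread, with a log2 change of -0.32 (SE 0.04, limma adjusted p = 3.73e-04). Rrm2, the small subunit whose level rises in S phase, was at 60.65 and 59.40 FPKM with YFP and at 53.16 and 52.50 with Cre. It fell by 0.18 (SE 0.04, limma adjusted p = 0.00944), and missed the threshold when either Cre library was left out (adjusted p 0.0681 and 0.101). The ratio of Rrm2 to Rrm1 FPKM was 1.07 and 1.06 with YFP and 1.17 and 1.19 with Cre, higher in both Cre libraries. Tyms, thymidylate synthase, was at 14.46 and 15.69 FPKM with YFP and at 13.40 and 13.17 with Cre (log2 change -0.17, limma adjusted p = 0.0411). The groups did not overlap, but the call held in only 3 of 12 other settings, with adjusted p up to 0.208.

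Of the 5 checkpoint genes, 4 were lower. Topbp1, which activates ATR at stalled forks, was at 23.87 and 23.31 FPKM with YFP and at 19.98 and 18.19 with Cre (log2 change -0.29, SE 0.06, limma adjusted p = 0.00233), and missed the threshold when Cre replicate 2 was left out (adjusted p = 0.0529). Clspn, the adaptor through which ATR reaches CHK1, was at 6.93 and 7.47 FPKM with YFP and at 5.62 and 5.66 with Cre, with no overlap (log2 change -0.30, limma adjusted p = 0.00419). Chek1, the kinase CHK1 itself, was at 4.29 and 4.50 FPKM with YFP and at 3.70 and 3.23 with Cre (log2 change -0.27, limma adjusted p = 0.0169). Chek1 missed the threshold with YFP replicate 2 or Cre replicate 2 left out and with no filter, with adjusted p up to 0.161.

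Atr and Atrip, whose proteins form a complex, had unlike log2 changes in the reported fit. Atr was at 4.00 and 4.21 FPKM with YFP and at 3.28 and 3.16 with Cre, with no overlap (log2 change -0.27, SE 0.07, limma adjusted p = 0.0111). Atr missed the threshold when YFP replicate 2 or either Cre replicate was left out and after removal of the trend with GC and length, with adjusted p up to 0.0920. Atrip was at 4.19 and 4.00 FPKM with YFP and at 3.77 and 4.25 with Cre, so that the highest and the lowest of the 4 libraries were both Cre libraries (log2 change -0.03, SE 0.07, limma adjusted p = 0.820). The ratio of Atrip to Atr FPKM was 1.05 and 0.95 with YFP and 1.15 and 1.34 with Cre, and the difference between the genes was not tested. Their transcripts had unlike GC contents, 40.8% for Atr and 54.9% for Atrip. With the GC and length trend removed, the log2 changes of Atr and Atrip were -0.16 and -0.08, and neither passed.

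**Figure D2:**
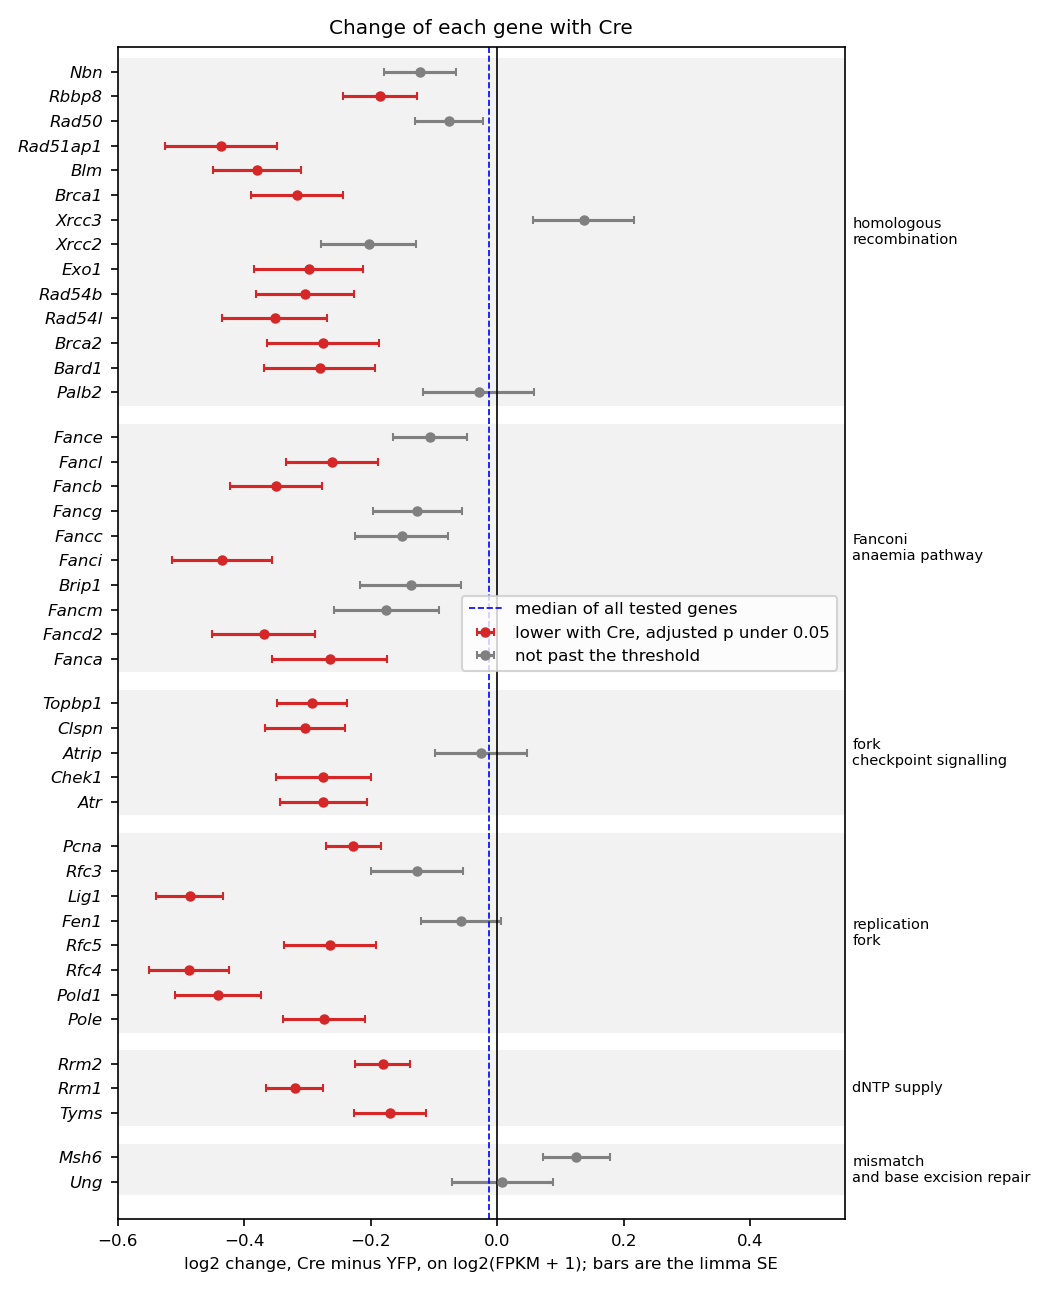
Log2 change (Cre minus YFP, on log2(FPKM + 1)) of each gene by role, with the limma standard error as bars; red points passed the threshold, grey points did not, and the dashed line marks the median of all tested genes (-0.01). Rfc4 and Lig1 lie farthest to the left (-0.49 each), and Xrcc3 (0.14) and Msh6 (0.13) farthest to the right without passing.

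In homologous recombination, 9 of 14 genes were lower. Brca1, whose protein pairs with that of Bard1 as a ubiquitin ligase at broken DNA, was at 3.43 and 3.26 FPKM with YFP and at 2.58 and 2.40 with Cre (log2 change -0.32, SE 0.07, limma adjusted p = 0.00709), and missed the threshold when Cre replicate 2 was left out (adjusted p = 0.0795). Bard1 was at 1.45 and 1.73 FPKM with YFP and at 1.07 and 1.19 with Cre (log2 change -0.28, limma adjusted p = 0.0311). Brca2, a tumour suppressor gene of homologous recombination, was at 1.77 and 1.64 FPKM with YFP and at 1.38 and 1.10 with Cre (log2 change -0.27, limma adjusted p = 0.0354). None of the 3 genes had overlapping groups. The calls of Bard1 and Brca2 were lost in 5 of the 11 other settings each, with adjusted p up to 0.184 and 0.268. Palb2, which links BRCA1 to BRCA2, was at 1.13 and 1.32 FPKM with YFP and at 1.09 and 1.27 with Cre, where each group held a lower and a higher library (log2 change -0.03, SE 0.09, limma adjusted p = 0.829).

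The 3 genes that aid strand invasion were all lower. Rad51ap1 was at 8.26 and 10.29 FPKM with YFP and at 6.65 and 6.47 with Cre, and the YFP libraries were the more spread (log2 change -0.44, SE 0.09, limma adjusted p = 0.00557). It missed the threshold when Cre replicate 2 was left out (adjusted p = 0.0634), and its change was -0.29 without YFP replicate 2. Rad54l, a motor protein gene of this step, was at 2.24 and 2.44 FPKM with YFP and at 1.75 and 1.49 with Cre (log2 change -0.35, limma adjusted p = 0.00814, and adjusted p = 0.0999 without Cre replicate 2). Its relative Rad54b was at 2.28 and 2.32 FPKM with YFP and at 1.58 and 1.77 with Cre (log2 change -0.30, limma adjusted p = 0.0125), and missed the threshold when Cre replicate 1 was left out (adjusted p = 0.104). Rad54b shares 2068 exon bases on the same strand with Fsbp, so reads from the shared part may be counted for either. Xrcc2 and Xrcc3, also of homologous recombination, did not pass. Xrcc2 was lower in both Cre libraries (2.59 and 2.80 against 2.27 and 2.15 FPKM, limma adjusted p = 0.0604) and passed with quantile normalization and without the trend and robust settings. Xrcc3 was higher in both (2.25 and 2.41 against 2.85 and 2.48 FPKM, limma adjusted p = 0.218).

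Of 5 genes for resection, the trimming of broken ends that starts recombination, 3 were lower. Blm, a helicase that also dissolves joined DNA molecules, was at 5.22 and 5.79 FPKM with YFP and at 4.06 and 3.93 with Cre, well apart (log2 change -0.38, SE 0.07, limma adjusted p = 0.00200). Exo1, a nuclease, was at 2.54 and 2.38 FPKM with YFP and at 2.01 and 1.63 with Cre (log2 change -0.30, limma adjusted p = 0.0221), and it missed the threshold with YFP replicate 1 or Cre replicate 2 left out and with no filter. Rbbp8, which encodes CtIP and acts at the first step, was at 11.65 and 12.49 FPKM with YFP and at 10.72 and 10.26 with Cre (log2 change -0.19, limma adjusted p = 0.0315). The Rbbp8 call was lost in 7 of 12 other settings, with adjusted p up to 0.208. Nbn and Rad50, of the complex that senses broken ends with CtIP, were lower in both Cre libraries without passing. Nbn was at 16.78 and 18.11 FPKM with YFP and at 16.38 and 15.51 with Cre (log2 change -0.12, limma adjusted p = 0.125), and Rad50 was at 10.71 and 10.78 against 10.07 and 10.22 (log2 change -0.08, limma adjusted p = 0.315). Differences between these genes were not tested.

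All 10 Fanconi anaemia genes lay lower in both Cre libraries, an arrangement found in 35.4% of all tested genes. Of the 10, 5 passed (all tested genes 16.3% lower). Fanci and Fancd2 encode the pair of proteins that is ubiquitinated on crosslinked DNA. Fanci was at 3.22 and 2.87 FPKM with YFP and at 1.91 and 2.07 with Cre, with a Cre mean of 0.65 of the YFP mean, the lowest ratio among the 42 genes (log2 change -0.44, SE 0.08, limma adjusted p = 0.00177). Fancd2 was at 2.03 and 2.22 FPKM with YFP and at 1.5 and 1.34 with Cre (log2 change -0.37, SE 0.08, limma adjusted p = 0.00558), and missed the threshold when Cre replicate 2 was left out (adjusted p = 0.0730). The ratio of Fanci to Fancd2 FPKM ran from 1.29 to 1.59 with YFP and from 1.27 to 1.54 with Cre, and these ranges overlapped.

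Of the 7 genes of the core complex that ubiquitinates this pair, 3 passed. Fancb was at 3.38 and 3.18 FPKM with YFP and at 2.43 and 2.29 with Cre (log2 change -0.35, limma adjusted p = 0.00427, and adjusted p = 0.0554 without Cre replicate 2). Fancl, the ubiquitin ligase subunit, was at 4.36 and 3.93 FPKM with YFP and at 3.21 and 3.37 with Cre (log2 change -0.26, limma adjusted p = 0.0186). Fanca was at 1.97 and 1.56 FPKM with YFP and at 1.28 and 1.31 with Cre (log2 change -0.26, limma adjusted p = 0.0447), where the YFP libraries were far apart. The calls of Fancl and Fanca were lost in 5 of 11 other settings each, with adjusted p up to 0.119 and 0.287. The log2 change of Fanca was -0.16 without YFP replicate 1 and -0.37 without YFP replicate 2. Fancc, Fance, Fancg and Fancm, the other core genes, and the helicase gene Brip1 had log2 changes between -0.17 and -0.11 and adjusted p between 0.132 and 0.220. Fance (8.21 and 8.07 FPKM with YFP, 7.67 and 7.32 with Cre) and Fancc passed only with the GC and length trend removed, at adjusted p = 0.0175 and 0.0478.

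Neither gene of mismatch and base excision repair was lower. Msh6, which recognises mismatches, was at 11.15 and 11.33 FPKM with YFP and at 12.34 and 12.36 with Cre. Its replicates agreed closely and the Cre libraries were the higher ones, but the change did not pass (log2 change 0.13, SE 0.05, limma adjusted p = 0.0934), nor did it in any of the 12 other settings (adjusted p 0.0581 to 0.276). Ung, which removes uracil from DNA, was at 2.85 and 2.51 FPKM with YFP and at 2.84 and 2.56 with Cre, an almost complete overlap (log2 change 0.01, SE 0.08, limma adjusted p = 0.952).

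Other genes of the same and neighbouring pathways were taken from a list set by pathway membership, with earlier results of these data known. Of its 165 genes, 164 were tested, and 48 were lower and 4 higher (limma; all tested genes 16.3% and 16.6%), with a median log2 change of -0.11. Pold4, Pola2, Polm and Xpa were the 4 higher genes, of which Pold4 and Pola2 are named after their values were seen. Both counts were smaller with either Cre library left out, and so were the shares over all tested genes. The roles differed in their counts. At the replication fork 15 of 27 were lower and 2 higher, in deoxynucleotide supply 4 of 9 lower, in translesion synthesis 6 of 12, in checkpoint signalling 5 of 16, in mismatch and base excision repair 6 of 24, in homologous recombination 8 of 34 and in the Fanconi anaemia pathway 2 of 10. In nucleotide excision repair 1 of 20 was lower and 1 higher, and in end joining 1 of 12 was lower and 1 higher. In the Fanconi anaemia pathway (20%) and homologous recombination (23.5%) the shares were only a little above the background of 16.3%. In nucleotide excision repair and end joining they were below it, but with few genes listed. Differences between roles, and from the background, were not tested.

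By the rule of the smallest unadjusted p in each role, the following were named. At the fork, Rpa3, a subunit of the protein that coats single DNA strands, was at 22.97 and 23.97 FPKM with YFP and at 17.44 and 17.22 with Cre (limma adjusted p = 1.27e-04), and Wdhd1 and Pold3 had Cre means of 0.73 and 0.77 of their YFP means. In recombination, Parpbp had a ratio of 0.61 (5.76 and 5.62 FPKM with YFP, 3.49 in both Cre libraries, limma adjusted p = 8.97e-05), Fignl1 of 0.73 and Rad51c of 0.64. In deoxynucleotide supply, the folate enzyme gene Shmt1 had a ratio of 0.62, Tk1, thymidine kinase, of 0.75 and Dut, which degrades dUTP, of 0.79. These had adjusted p of 3.60e-04, 2.69e-04 and 0.00383. Usp1, which removes ubiquitin from FANCD2, and Ube2t, which supplies it, had ratios of 0.80 and 0.84 (limma adjusted p = 8.13e-04 and 0.0140), while Fan1 did not pass (adjusted p = 0.0579).

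In checkpoint signalling H2afx, Tipin and Chek2 had ratios of 0.81, 0.86 and 0.84, with limma adjusted p of 0.00147, 0.00734 and 0.0145. In base excision repair the glycosylase genes Neil3 and Tdg had ratios of 0.72 and 0.83 and Parp1 of 0.82, all past the threshold. In translesion synthesis Mad2l2, Rev3l and Primpol had ratios of 0.79, 0.78 and 0.78, also past it. In end joining Polm, a gap-filling polymerase gene, rose from 7.97 and 7.66 to 9.40 and 9.18 FPKM (limma adjusted p = 0.0128) while Rif1 had a ratio of 0.75 (adjusted p = 0.0119) and Xrcc5 did not pass (adjusted p = 0.102). In nucleotide excision repair Xpa rose from 10.59 and 10.65 to 12.73 and 12 FPKM (limma adjusted p = 0.0180), Gtf2h1 had a ratio of 0.89 (adjusted p = 0.0357), and Ercc3 did not pass (adjusted p = 0.113).

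**Figure D3:**
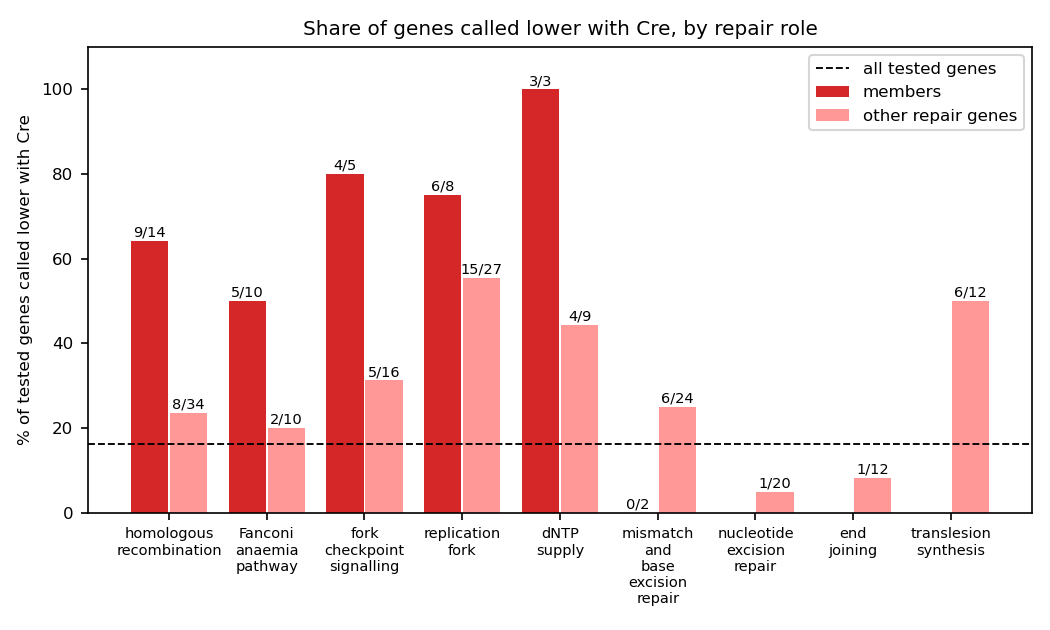
Percentage of tested genes called lower with Cre (limma adjusted p under 0.05) in each role, for the 42 genes (dark bars) and for the other repair genes (light bars), with counts above the bars; the dashed line is the share over all tested genes (16.3%). Bars stand above the line in both sets for the fork, deoxynucleotide supply, checkpoint signalling, homologous recombination and the Fanconi anaemia pathway. In the other repair genes, those of the Fanconi anaemia pathway (2 of 10, 20%) and homologous recombination (8 of 34, 23.5%) are only a little above it. Translesion synthesis (6 of 12), present only among the other repair genes, is also above it. For mismatch and base excision repair the bar is below the line in the 42 genes (0 of 2) and above it in the others (6 of 24). Nucleotide excision repair (1 of 20) and end joining (1 of 12) are below it.

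Promoters were compared because E2F factors are known to act on many of these genes. RefSeq windows of 300 bases, from 250 before to 50 after the start, were given for 34 of the 42 genes (38 windows). The E2F words searched were TTTCCCGC, TTTCGCGC, TTTGCCGC and TTTGGCGC on both strands. They occurred in 9 of 38 windows (23.7%), against 3.98% of the 12208 windows of tested genes and 2.26% of all 32851 windows. The 9 windows belong to Bard1, Brca2, Clspn, Fancg, Lig1, Msh6, Pold1, Rfc3 and Topbp1. The words were in 6 of 25 windows of genes called lower (24.0%) and in 3 of 13 of the others (23.1%). The sequence CCAAT, read by the factor NF-Y, was in 20 of 38 windows (52.6%, tested genes 37.9%), and TTTGAA or TTCGAA, the CHR element of late cell cycle genes, in 4 (10.5%, tested genes 13.7%), with both strands searched and no overlap between these words and the E2F words required or excluded. The windows of 3 genes that were lower and of Msh6, which was not, are printed below to show the word in both kinds, 5′ to 3′ on the strand of the gene, in RefSeq's build GRCm38.p6 and with the E2F words in capitals. A match is a description of letters and not of binding.
Pold1, chr7:44548766-44549065, minus strand: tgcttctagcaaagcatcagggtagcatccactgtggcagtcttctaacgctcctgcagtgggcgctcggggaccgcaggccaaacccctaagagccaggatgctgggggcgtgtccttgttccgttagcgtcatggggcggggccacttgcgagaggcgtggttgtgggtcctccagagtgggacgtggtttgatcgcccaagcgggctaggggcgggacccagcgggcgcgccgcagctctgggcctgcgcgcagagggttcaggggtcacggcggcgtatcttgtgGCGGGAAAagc
Brca2, chr5:150522371-150522670, plus strand: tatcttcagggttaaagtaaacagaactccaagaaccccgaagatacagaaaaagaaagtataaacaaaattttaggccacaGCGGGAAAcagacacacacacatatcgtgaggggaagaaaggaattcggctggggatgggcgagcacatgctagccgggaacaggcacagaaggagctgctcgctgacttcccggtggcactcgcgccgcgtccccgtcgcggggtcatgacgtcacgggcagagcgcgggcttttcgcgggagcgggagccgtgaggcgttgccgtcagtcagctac
Topbp1, chr9:103305077-103305376, plus strand: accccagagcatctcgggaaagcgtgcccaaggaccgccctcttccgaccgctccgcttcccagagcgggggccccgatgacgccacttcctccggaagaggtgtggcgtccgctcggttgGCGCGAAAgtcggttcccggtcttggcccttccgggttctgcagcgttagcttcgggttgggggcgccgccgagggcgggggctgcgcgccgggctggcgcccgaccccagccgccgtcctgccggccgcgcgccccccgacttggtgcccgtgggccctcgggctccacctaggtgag
Msh6, chr17:87974800-87975099, plus strand: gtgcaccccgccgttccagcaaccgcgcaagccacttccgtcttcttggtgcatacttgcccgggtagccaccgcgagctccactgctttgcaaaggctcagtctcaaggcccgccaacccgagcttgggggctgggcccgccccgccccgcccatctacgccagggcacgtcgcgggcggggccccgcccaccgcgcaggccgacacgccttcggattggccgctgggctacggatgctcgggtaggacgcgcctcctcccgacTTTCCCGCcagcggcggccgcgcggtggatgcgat

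Sites for the miRNAs of both clusters were counted in the longest annotated 3′ UTR (GENCODE M21), as pairing to seed bases 2 to 8. At least 1 site of the 4 families was found in 12 of the 42 genes (28.6%), against 4118 of 11539 tested genes (35.7%), and the median 3′ UTR length was 1003 and 1377 bases. The miR-17 family site GCACTTT was in 3 genes (7.14%, tested genes 15.3%), the miR-19 site TTTGCAC in 3 (7.14%, tested genes 14.3%), the miR-18 site GCACCTT in 5 (11.9%, tested genes 10.1%) and the miR-92 site GTGCAAT in 2 (4.76%, tested genes 7.83%). Sites were in 7 of the 27 genes called lower and in 5 of the 15 others. Rrm2 had overlapping sites of the miR-17 and miR-19 families. It is shown with Fanci, the gene with the lowest ratio, and with the miR-92 sites of Fancd2 and Fancm. Only the miR-19 site of Rrm2 and the site of Fancm are followed by an A among all 13 sites found. The sites are in capitals, 5′ to 3′, in the letters of the transcript's DNA.
Rrm2, miR-17 family: tgtaaataaaattgGCACTTTgcacacaca
Rrm2, miR-19 family: aataaaattggcacTTTGCACacacacaca
Fanci, miR-17 family: ttccacataagaatGCACTTTggcttatac
Fancd2, miR-92 family: ttgagttgaggtttGTGCAATcgtactggt
Fancm, miR-92 family: cctctgtttataatGTGCAATaaataggag

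The transcripts of the 42 genes had a median GC content of 46.3%, against 49.6% over all tested genes, with 46.0% in the genes called lower and 48.3% in the others. With the trend of values with GC and length removed in each library, 23 of 42 genes were called lower and 0 higher (background 18.8% lower, 16.4% higher). Atr, Bard1, Brca2, Fancl, Rbbp8 and Tyms then lost their calls. The log2 changes of Atr and Brca2 became -0.16 each, and that of Rbbp8 became -0.10. Several values may hold reads of other genes, since the use of strand is not known. In the annotation, 16 of the 42 genes share exon bases with another gene, among them Fanci with Polg (665 bases), Rfc5 with Wsb2 (499), Lig1 with Zswim9 (217), Rfc4 with Eif4a2 (175) and Fen1 with Gm10143 (1908), all on opposite strands. Pcna, Topbp1 and Tyms have processed pseudogenes that may share reads with them.

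**Figure D4:**
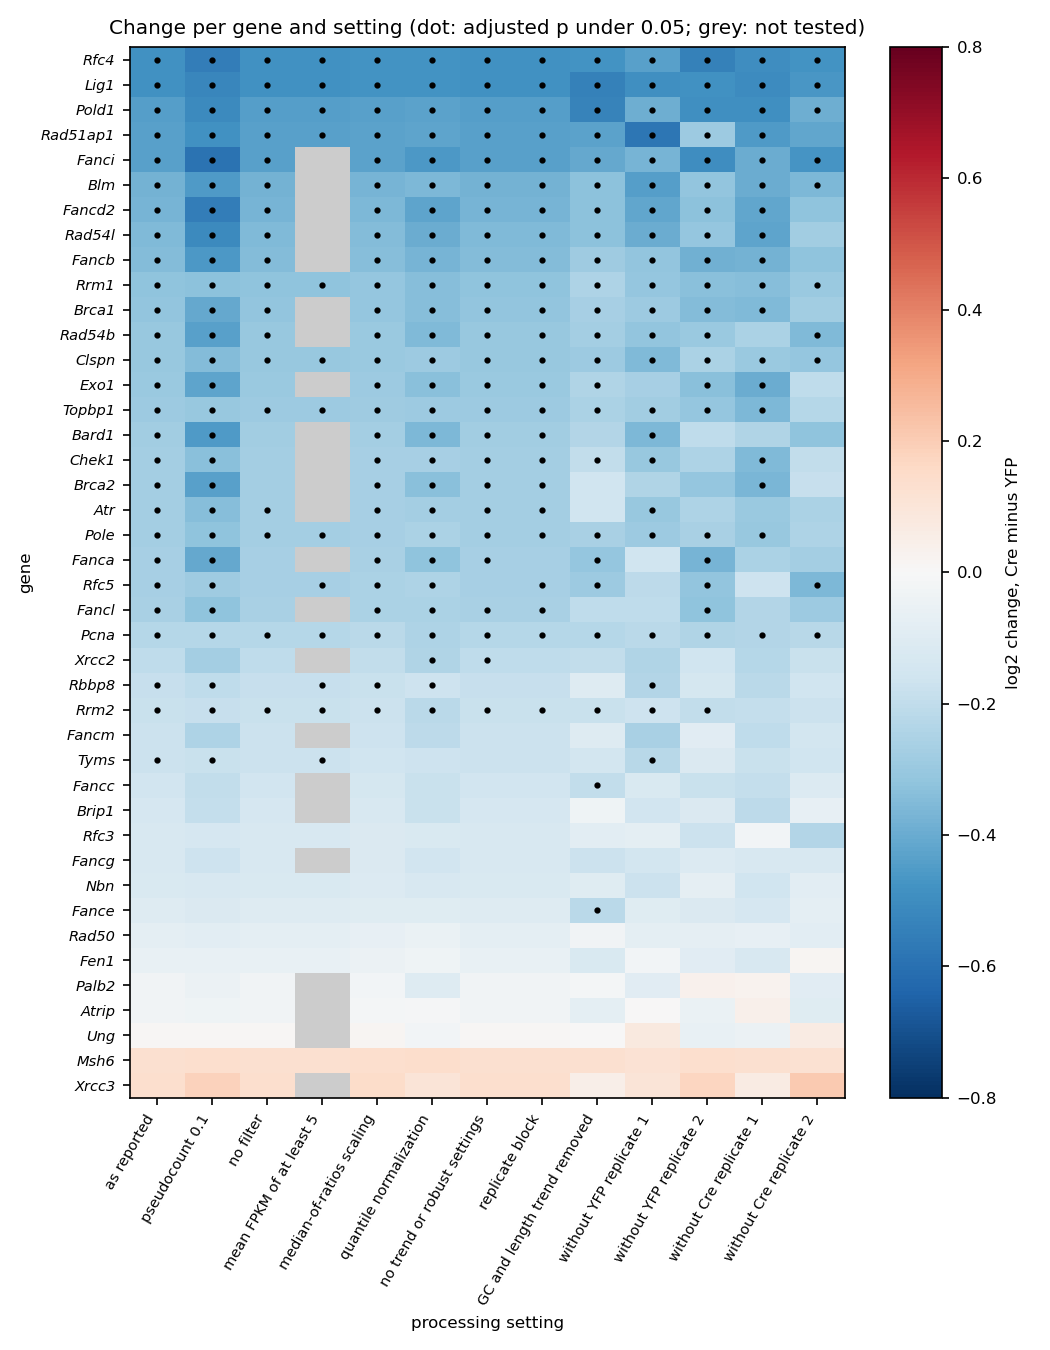
Log2 change (Cre minus YFP, colour scale) of each gene in the reported fit and in 12 other settings, with a dot where the adjusted p was under 0.05 and grey where the gene was not tested. The column without Cre replicate 2 holds 10 dots and that of the reported fit 27, and each of the 27 genes is blue in every column that tested it.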

How the data were processed

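PolyA RNA of 4 libraries (2 Cre, 2 YFP) was sequenced as single-end reads on the BGISEQ-500, per the labels' protocols. The deposited values are FPKM per gene and library, rounded by the authors to 2 decimals, per the file headers. The tool Bowtie 02.2.5 and the genome mm8 appear, without their roles, per the submitters' processing notes. For the quantification program, annotation and strand setting the entry is: not given in the sources used here. Absolute depth is unknown, so no counting interval is given. Columns were assigned by the number in their name, which equals 1 sample's description.

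The 12046 genes reaching 1 FPKM in 2 or more libraries were compared on log2(FPKM + 1) with limma 3.58.1 (R 4.3.3; trend and robust empirical Bayes, two-sided, Benjamini-Hochberg over all tested genes, threshold 0.05). The procedure was also run on simulated data. Those held far fewer changed genes than were called here, so they do not test it at this share. The log2(FPKM + 1) scale understates the change of low genes. Whether replicate libraries stem from separate cultures or animals is not recorded, and the p-values thus describe variation among 4 libraries, which may be technical. Genes named are all 42 members and, of 165 other repair genes, the 3 of each role with the smallest unadjusted p. Members and lists were chosen with earlier results of these data known. Symbols missing from the table were matched by Entrez ID (4 genes). Alternatives were other pseudocounts, filters, scalings, variance settings, a replicate block, each library left out and, chosen after seeing the data, removal of the GC and length trend. RefSeq and GENCODE M21 sequences are on GRCm38, another build than mm8; they were joined by gene ID, and their coordinates belong to the sequences only.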

Additional observations from a re-analysis of the deposited data

How the results depend on the processing

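The count of 27 lower genes stayed between 18 and 27 in 10 of the 12 other settings, and 0 genes were called higher in each of the 12. At a mean FPKM of at least 5, where 19 of the genes were tested, 13 were lower. Leaving out 1 library gave 10 to 22 lower genes, and over all genes 1872 to 3560 calls against 3961. The median log2 change was -0.31 with a pseudocount of 0.1, -0.23 at a mean FPKM of at least 5, -0.21 with the GC and length trend removed (chosen after seeing the data), and -0.25 to -0.22 with 1 library left out. Of the other repair genes, 31 were lower with no filter, and 16 to 41 lower and 0 to 6 higher with 1 library left out. With the replicate number as a block, 24 of the 42 genes and 3533 genes in all were called, but same-numbered libraries did not deviate together (correlation -0.03), so the numbers show no pairing. The sign turned only for genes that were not called: Ung was at -0.021 after quantile normalization. With 1 library left out, log2 changes ran from -0.058 to 0.075 for Ung, from -0.095 to 0.043 for Atrip, from -0.091 to 0.032 for Palb2 and from -0.128 to 0.013 for Fen1. The causes were not tested. Depth is not known from FPKM, so counting error at low levels could not be given.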
